A study of Mus musculus with 10 samples.

Results

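Of the 8876 genomic sites bound by Suz12-TAP in mouse ESCs, 5722 (64.5%) were in the list of sites with decreased Suz12 on Pcl3 knockdown and 3154 were not. Matching by chromosome, start and end placed all depleted sites in the binding list, which was then divided into lost sites, which are those called depleted, and kept sites, which are all the others. A kept site is one at which no depletion was called, which does not show that its binding was unchanged. Each site was given to the protein-coding gene with the nearest transcription start, and the loss is described here gene by gene. The cells were ESCs of the BayGenomics gene trap line XG122 in which 1 Suz12 allele carries a TAP tag (Suz12Suz12TAP/+), and they expressed either a scramble shRNA or a Pcl3 shRNA. Both arms therefore share the tagged allele and the FlagM2 antibody used for ChIP, and there was 1 ChIP library and 1 input library per arm. H3K27me3 was measured in the same cells with 1 library per arm. Pcl3 binding was measured with Pcl3-TAP in E14 ESCs that carried Pcl3 shRNA, with 2 ChIP libraries and 1 site list between them. The 2 input libraries of these cells are titled Pcl3-shRNA7 and Pcl3-shRNA6. With 1 library per arm no test between the arms was possible. Intervals given with shares below are 95% Wilson intervals, which cover counting error over sites or genes, and these are not replicates.

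PRC2 is the complex that trimethylates lysine 27 of histone H3, with Ezh1 or Ezh2 as its enzyme and Suz12 and Eed as its other core subunits. In ESCs it is found mainly at CpG-rich promoters of silent developmental regulators, many of them transcription factors that later direct the germ layers. Pcl3 (Phf19) is one of 3 Polycomb-like proteins that join the complex as accessory subunits.

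The sequences at the center of start-covering sites show the kind of DNA that was compared. The first 3 sites below are each the only Suz12 site of a gene with all sites lost, those with the smallest binding p-value above 0, and belong to Maml3, a coactivator of Notch signaling, Kcnk12, a potassium channel subunit, and Fzd1, a Wnt receptor. Each stretch has 200 bases of the plus strand of mm9, written 5′ to 3′, with every CpG in capitals. They hold 13, 14 and 12 CpG.
Maml3, chr3:51907501-51907700: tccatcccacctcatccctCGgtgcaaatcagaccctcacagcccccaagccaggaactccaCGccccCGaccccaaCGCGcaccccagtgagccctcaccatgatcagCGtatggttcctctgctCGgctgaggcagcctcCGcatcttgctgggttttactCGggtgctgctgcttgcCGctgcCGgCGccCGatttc
Kcnk12, chr17:88197201-88197400: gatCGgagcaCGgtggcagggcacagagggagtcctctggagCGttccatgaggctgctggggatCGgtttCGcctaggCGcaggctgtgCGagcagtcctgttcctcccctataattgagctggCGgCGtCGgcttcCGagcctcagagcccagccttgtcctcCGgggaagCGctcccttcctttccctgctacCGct
Fzd1, chr5:4757051-4757250: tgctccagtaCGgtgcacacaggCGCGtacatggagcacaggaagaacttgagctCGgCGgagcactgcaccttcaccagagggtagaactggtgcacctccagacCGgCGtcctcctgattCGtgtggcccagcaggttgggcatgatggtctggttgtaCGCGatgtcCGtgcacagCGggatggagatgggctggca

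The next 3 come from the strongest sites of genes with 1 site that kept it, namely Fam176a, the postsynaptic scaffold gene Dlgap3 and the Groucho family corepressor gene Tle3. They are as rich in CpG as the lost sites, with 14, 28 and 12 in 200 bases.
Fam176a, chr6:81992151-81992350: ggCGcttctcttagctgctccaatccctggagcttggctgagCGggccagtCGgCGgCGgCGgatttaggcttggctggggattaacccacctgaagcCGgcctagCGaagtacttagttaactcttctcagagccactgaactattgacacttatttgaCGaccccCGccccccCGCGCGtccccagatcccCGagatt
Dlgap3, chr4:126846126-126846325: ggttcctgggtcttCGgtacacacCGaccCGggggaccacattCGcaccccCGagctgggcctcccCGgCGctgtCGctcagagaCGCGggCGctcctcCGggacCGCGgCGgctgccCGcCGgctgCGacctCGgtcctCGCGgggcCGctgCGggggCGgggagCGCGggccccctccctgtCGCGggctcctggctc
Tle3, chr9:61221251-61221450: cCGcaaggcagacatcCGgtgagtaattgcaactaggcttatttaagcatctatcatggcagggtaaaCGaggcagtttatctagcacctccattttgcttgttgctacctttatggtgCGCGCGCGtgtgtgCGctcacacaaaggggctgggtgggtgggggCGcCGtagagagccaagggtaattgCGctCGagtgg

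The last 4 are the strongest lost and the strongest kept site of Hoxd3, a homeobox gene, and of Sfi1, a centrosome gene, which both lost some sites and kept others. The lost stretches hold 5 and 12 CpG and the kept ones 0 and 4. The kept site of Hoxd3 covers a start, and the kept site of Sfi1 lies 1160 bp from one.
Hoxd3 lost site, chr2:74572501-74572700: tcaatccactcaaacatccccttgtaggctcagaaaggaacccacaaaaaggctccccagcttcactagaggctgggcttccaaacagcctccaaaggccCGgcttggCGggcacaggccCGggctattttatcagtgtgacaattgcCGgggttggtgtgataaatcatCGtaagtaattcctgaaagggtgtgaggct
Hoxd3 kept site, chr2:74564326-74564525: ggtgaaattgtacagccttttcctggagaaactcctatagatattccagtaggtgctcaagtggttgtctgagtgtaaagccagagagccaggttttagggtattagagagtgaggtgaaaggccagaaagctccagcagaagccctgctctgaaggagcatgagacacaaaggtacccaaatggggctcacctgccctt
Sfi1 lost site, chr11:3093201-3093400: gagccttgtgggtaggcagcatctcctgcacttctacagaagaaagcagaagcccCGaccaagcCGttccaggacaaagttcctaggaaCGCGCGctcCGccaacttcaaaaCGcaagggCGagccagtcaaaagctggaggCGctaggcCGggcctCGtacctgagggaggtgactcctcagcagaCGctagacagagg
Sfi1 kept site, chr11:3034376-3034575: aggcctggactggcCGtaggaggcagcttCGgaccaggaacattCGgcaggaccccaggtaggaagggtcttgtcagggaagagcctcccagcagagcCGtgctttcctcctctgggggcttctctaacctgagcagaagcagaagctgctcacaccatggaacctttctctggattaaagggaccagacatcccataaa

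The loss of Suz12 followed the strength of binding, read here as −log10 of the deposited binding p-value in the scramble arm. The median was 53.5 at lost sites (quartiles 26.6 and 120) and 10.4 at kept sites (8.34 and 14.5). Lost sites had a median width of 1500 bp against 650 bp for kept sites and held 83.4% of all bound base pairs. The binding p-value and the call of depletion both read the scramble library, so a larger loss at strong sites and a greater chance to detect a loss at them cannot be told apart. For this reason each share of lost sites is set beside the share in all Suz12 sites of the same strength, taken decile by decile. These sites include the set itself, so a set that makes up much of a decile must come near its own share.

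Sites that cover a transcription start were lost more often than any class of sites away from one. Of the 4895 start-covering sites 74.7% were lost (73.5% to 75.9%), against 37.0% of the 874 sites that end within 1000 bp of a start (33.8% to 40.2%). Beyond that the share was higher, to 54.2% of 1042 sites farther out within 5000 bp and to 58.2% of the 491 sites over 50 kb away (53.8% to 62.5%). Start-covering sites were also the strongest, with a median −log10 p of 40.5, and those just beside a start the weakest, with 12.3. All Suz12 sites at the strength of the start-covering sites were lost at 74.9%. The start-covering sites were themselves 4895 of the 8876 sites, and 712 of 887 in the strongest decile, so these shares had to be close. All sites at the strength of those within 1000 bp were lost at 40.3%, just above the interval of the share observed (39.9%, inside it, with 50 strata of strength in place of 10). In deciles 3 to 5 of strength, sites far from a start were lost more often than those on a start. In the fifth decile, 77.0% of the 209 sites over 5 kb away were lost and 67.0% of the 482 start-covering sites. The same order held in deciles 3 and 4, at 35.0% against 29.8% and 55.8% against 47.5%, but not in decile 6, at 88.5% against 89.6%. In deciles 1, 2, 7, 8 and 9 the far sites were slightly above. No interval was computed for these shares. Sites in introns that cover no start were lost at 39.1% (35.4% to 42.9%) and those in exons at 53.5% (51.0% to 56.1%), close to the 41.8% and 53.3% of sites of their strength.

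**Figure D1:**
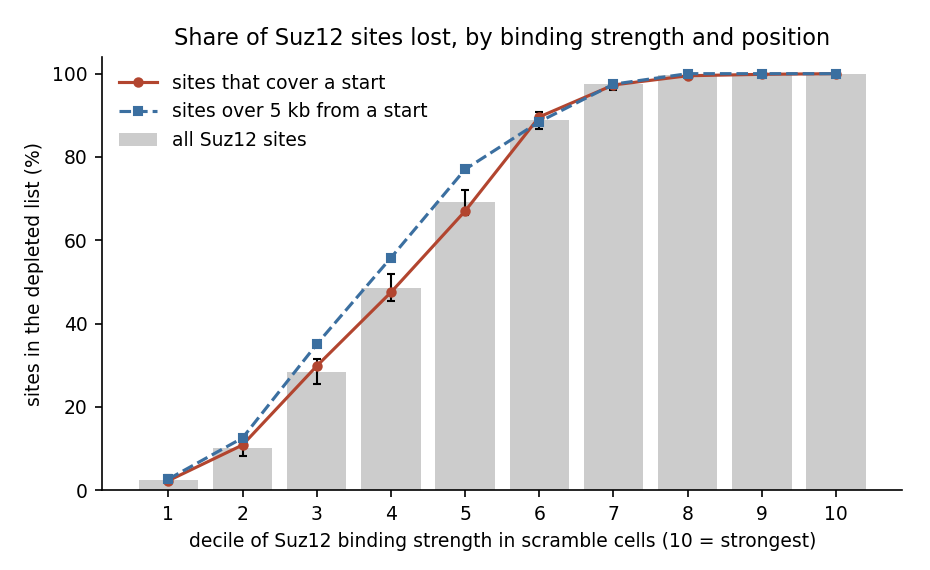
Percent of Suz12 sites in the depleted list (y axis) by decile of binding strength in scramble cells (x axis, 10 is the strongest), for all sites (bars, with 95% Wilson intervals), sites that cover a start (circles) and sites over 5 kb from one (squares). The bars climb from 2.48% in the weakest decile to 100% in the strongest, and the squares lie furthest above the circles in deciles 3 to 5.

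Within 5 kb of a start, 6811 sites belonged to 5282 of 22238 protein-coding genes (23.8%). All sites were lost at 3281 of these genes (62.1%, interval 60.8% to 63.4%), some were lost and some kept at 529 (10.0%, 9.23% to 10.9%), and all were kept at 1472 (27.9%, 26.7% to 29.1%). The groups differed in the strength of their best site. Its −log10 p had a median of 59.0 in all-lost genes (quartiles 29.9 and 126), 93.9 in partly lost genes (38.7 and 213) and 11.2 in all-kept genes (8.65 and 15.8). The share of partly lost genes depended on how sites were joined to genes. It was 4.96% when sites had to lie within 1 kb of a start and 6.34% when a site also counted as lost for a depleted center within 2 kb of its own.

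**Figure D2:**
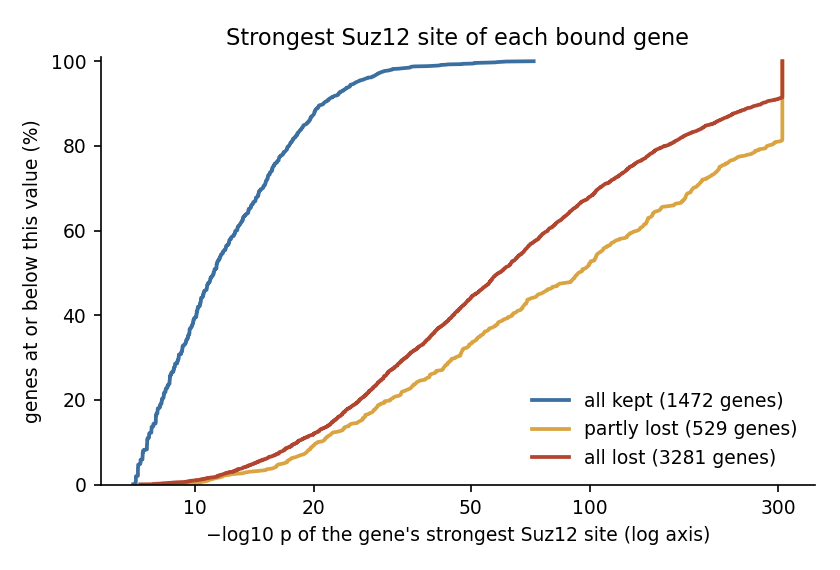
Cumulative percent of bound genes (y axis) by the −log10 p of their strongest Suz12 site (x axis, log scale), for all-kept, partly lost and all-lost genes. The all-kept curve ends at 72.1, and the vertical rise at 307 on the right holds the genes whose p-value was written as 0.

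Only genes with 2 or more sites can be partly lost, and 1038 genes had them. Of these, 400 (38.5%) lost all sites, 529 (51.0%) lost some and 109 (10.5%) lost none. A mixed fate was found at 44.2% of the 745 genes with 2 sites (40.6% to 47.8%), 60.2% of 186 genes with 3 and 77.3% of 75 genes with 4. A higher share at genes with more sites follows from their number alone, as more sites give more chances of differing, and is not a separate result. Of the 32 genes with at least 5 sites, 30 were partly lost, 2 lost all sites and none kept all.

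Several all-lost genes had many sites. Prdm6, a PRDM family repressor, and the predicted gene Gm53 lost 5 sites each, and 15 genes lost 4 each. The 10 of these 15 with the greatest summed site width were Hoxc6 and Hoxb4 of the Hox clusters, Nrn1, which encodes the neurite growth factor neuritin, Wt1, a zinc finger regulator of kidney and gonad, the LIM homeobox gene Lhx9, the forkhead genes Foxc1 and Foxd3, the cerebellar regulator Zic4, the nuclear receptor gene Nr4a2 of dopamine neurons and Mecom, a zinc finger gene of blood stem cells. Their sites spanned a wide range of strengths. The 5 lost sites of Prdm6 had −log10 p of 19.2, 307, 71.3, 197 and 19.5. At Foxc1, which acts in eye and vessel development, the 4 lost sites had 154, 38.9, 307 and 223, and the site at 307 covered the start. At Lhx9 the values were 29.9, 32.0, 307 and 307. Hoxb8, Hoxb5 and Hand1, a basic helix-loop-helix regulator of the heart and placenta, lost 1 site each, of 11700, 10800 and 7400 bp, and all 3 sites had a p-value written as 0.

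In partly lost genes it was the strongest site that was lost, at 512 of 529 genes (96.8%, 94.9% to 98.0%). Strong sites were lost more often across the whole list too, so this order is not a separate result. The lost sites of these genes had a median −log10 p of 70.9 and a median width of 1750 bp, and the kept ones 10.4 and 650 bp. A start was covered by 67.0% of the 767 lost sites (63.6% to 70.2%) and by 25.4% of the 668 kept sites (22.3% to 28.9%). At 326 genes (61.6%) a lost site covered a start and no kept site did, and at 46 (8.70%) the reverse was found. The nearest lost and kept site of a gene had a median gap of 550 bp (quartiles 150 and 2400 bp, largest 1760400 bp). Both had to lie within 5 kb of a start of the same gene, so short gaps follow in part from this rule. Gaps between sites of the other genes were not measured.

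Named examples show the pattern and its exceptions. Pax6, the eye and forebrain regulator, lost 3 sites with −log10 p of 307, 307 and 112 and kept 4 between 7.38 and 16.1. Nfix, a nuclear factor I gene, lost 4 sites between 43.0 and 307 and kept 3 between 9.89 and 15.5. The T-box gene Tbx15 lost 5 sites from 30.3 up and kept 1 at 9.52. In these genes the strengths of lost and kept sites did not overlap, nor did they at Hoxb3, which lost 5 from 62.4 up and kept 4 between 9.11 and 23.2. Strengths did overlap at Bcor, a corepressor gene on chromosome X, where a lost site had 17.4 and kept sites had 11.4, 17.7 and 37.8. At Hoxd3 the kept sites reached 25.8, above 2 of the 9 lost ones, at 21.8 and 25.3. At Sfi1, which had 15 sites between 3031801 and 3093900 of chromosome 11, lost sites ran from 6.82 to 133 and kept sites from 7.62 to 14.1, so weak sites of like strength had either fate. The clustered protocadherin genes Pcdhgc5 and Pcdha11 lost 12 of 21 and 6 of 9 sites.

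At 17 partly lost genes a kept site was the strongest. The first of them by strength was Bcorl1 on chromosome X, a relative of Bcor, with a kept site of −log10 p 99.6 over its start and a strongest lost site at 84.4. Next came Nbea, a neuronal trafficking gene, with 36.4 kept and 22.3 lost, and Dysf, the muscle membrane repair gene dysferlin, had 35.3 kept and 29.6 lost. Nfkb2, a subunit gene of NF-kappaB, had 31.7 kept and 22.5 lost. These 4 genes are named for the size of these values.

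**Figure D3:**
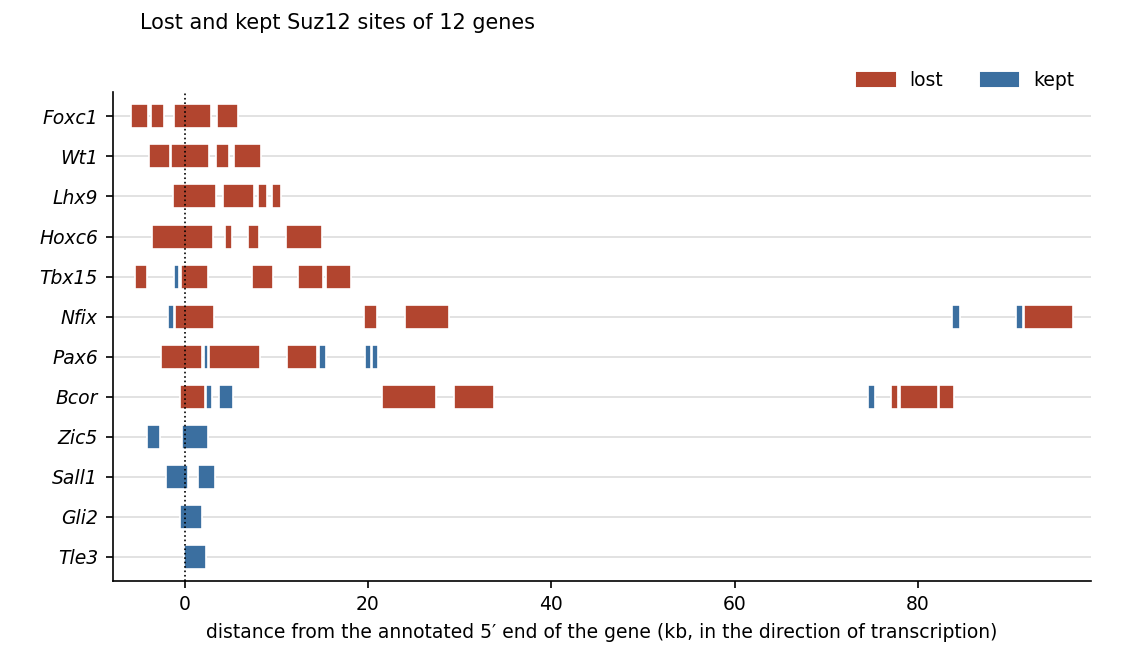
Position of lost and kept Suz12 sites (boxes, drawn to scale) along 12 genes, in kb from the annotated 5′ end of the gene in the direction of transcription (x axis). Foxc1, Wt1, Lhx9 and Hoxc6 lost all sites, Zic5, Sall1, Gli2 and Tle3 kept all, and in Tbx15, Nfix, Pax6 and Bcor narrow kept sites stand beside wide lost ones.

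Strong sites were seldom kept. In the 4 strongest deciles 27 of 3550 sites were kept (0.761%, 0.523% to 1.10%), 20 of them over a start. The 10 all-kept genes with the smallest p-values were Zic5, a zinc finger gene of the neural crest, Fam176a, Sall1, a zinc finger regulator of the kidney, Dlgap3, Tle3, Gli2, a transcriptional effector of hedgehog signaling, Gm10125, C2cd4c, Tacr1, which encodes the substance P receptor, and Rgs17, a regulator of G protein signaling. Zic5 kept 2 sites, a start-covering one at chr14:122862351-122865150 (mm9) with a p-value of 8.33e-73 and a second with 1.34e-35. Sall1 kept 2 with 2.01e-60 and 7.31e-43, the stronger at chr8:91567701-91570100. In the decile of the stronger Zic5 site, 99.7% of sites were lost. Single kept sites had p-values of 2.70e-62 at Fam176a, 4.68e-59 at Dlgap3, 2.84e-58 at Tle3 and 3.48e-55 at Gli2 (chr1:120948351-120950650). Of these 10 genes, 6 had a Pcl3 site within 2 kb of a Suz12 site, among them Zic5, Sall1 and Dlgap3, and none had an H3K27me3-depleted site there.

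Kept sites were of different base composition in the all-kept and the partly lost genes. The 1597 kept sites of all-kept genes had a median of 7.11 CpG per 100 bp and a GC content of 64.0%, above the 5.87 and 60.4% of the 3779 sites of all-lost genes. The 668 kept sites of partly lost genes had 3.41 CpG per 100 bp and 57.0% GC, below the 5.07 and 59.1% of the 767 sites lost from the same genes. The kept sites of both groups were of like strength and width, with median −log10 p of 10.9 and 10.4 and median widths of 650 bp in each. These densities are averages over whole sites, and lost sites were wider than kept ones. Over all Suz12 sites the whole-site medians were 5.455 CpG per 100 bp at lost and 5.273 at kept sites. Within the 500 bp around the center they were 7.6 and 5.8. The center measure was not divided by the fate of the gene, so the order of the gene groups is given for whole sites only. A start was covered by 66.8% of the kept sites of all-kept genes (64.5% to 69.1%) and by 25.4% of those of partly lost genes. Among start-covering sites of the same decile the difference in CpG was widest at weak sites. In the weakest decile the medians were 8.60 at 229 kept sites of all-kept genes and 4.63 at 28 of partly lost genes, in the next 8.00 at 221 and 4.47 at 42, and in decile 3 they were 7.71 at 215 and 4.62 at 37. It was smaller in decile 4, at 6.56 and 4.76, and in deciles 5 and 6 the medians were 6.30 and 5.83, and 6.47 and 5.83, the last over 11 sites of partly lost genes. The order of all-kept and all-lost genes was not the same in every decile. Lost start-covering sites of all-lost genes had 7.07 in decile 3 (93 sites), below the kept sites of all-kept genes, 7.27 and 6.43 in deciles 4 and 5, above them, and 6.38 in decile 6.

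**Figure D4:**
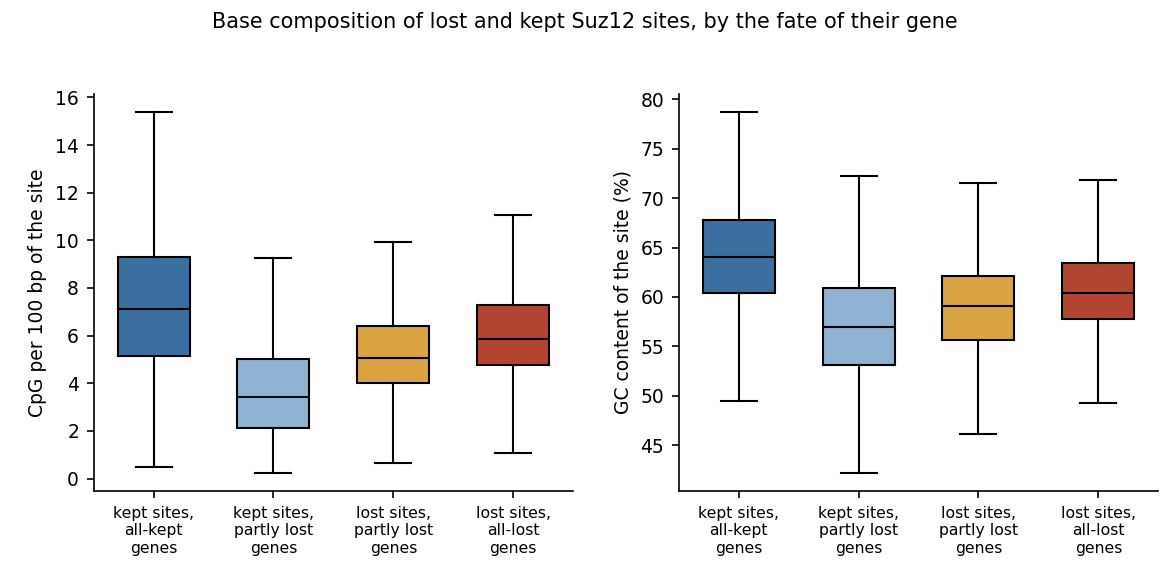
CpG per 100 bp (left) and GC content in percent (right) of 1597 kept sites of all-kept genes, 668 kept and 767 lost sites of partly lost genes and 3779 sites of all-lost genes, as boxes of the median and quartiles with whiskers to the farthest site within 1.5 interquartile ranges. The kept sites of partly lost genes lie lowest and those of all-kept genes highest in both panels.

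At equal strength the share of lost sites varied more with width than with CpG density. Sites of deciles 3 to 6 were ranked within 50 narrow strata of strength and divided into 3 equal groups. The narrowest sites were lost at 68.7% (66.0% to 71.2%), the middle group at 63.1% and the widest at 44.5% (41.7% to 47.3%). By GC content the shares were 62.8% in the lowest group, 58.5% in the middle one and 55.1% (52.2% to 57.9%) in the highest. By CpG density of the whole site they were 59.6%, 59.9% and 56.9%, with overlapping intervals. By CpG density of the 500 bp around the center they were 56.4% (53.6% to 59.2%), 61.6% (58.8% to 64.3%) and 58.4%. By this measure the lowest group of decile 5 was lost less often than the middle one, at 62.8% and 74.7%. The order was the same in decile 3, at 28.4% and 32.4%, and in decile 6, at 85.1% and 92.2%, with overlapping intervals in both. In decile 4 the lowest group was not lost less often, at 50% and 46.0%. The height of the sites could not be compared, since read counts were not analysed here.

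In all, 29 gene families and pathways were followed, and 27 of them had a bound gene. None of 67 histone genes and none of 80 ribosomal protein genes was bound. The lists differed in how many of their bound genes lost all sites, from 43.1% for the numbered Zfp genes to 93.3% for the Sox genes among lists of at least 10 bound genes, beside 62.1% for all bound genes. Their median best −log10 p ranged from 16.7 to 307 over the same lists, and for each of the 27 lists the share of lost sites had an interval that held the share of all Suz12 sites of the same strength. The share of all-lost genes also depends on sites per gene, which differed between lists. It was 67.9% for genes with 1 site and 43.1% for genes with 2. Of 13 bound T-box genes 7 lost all sites, while 29 of their 36 sites were lost.

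**Figure D5:**
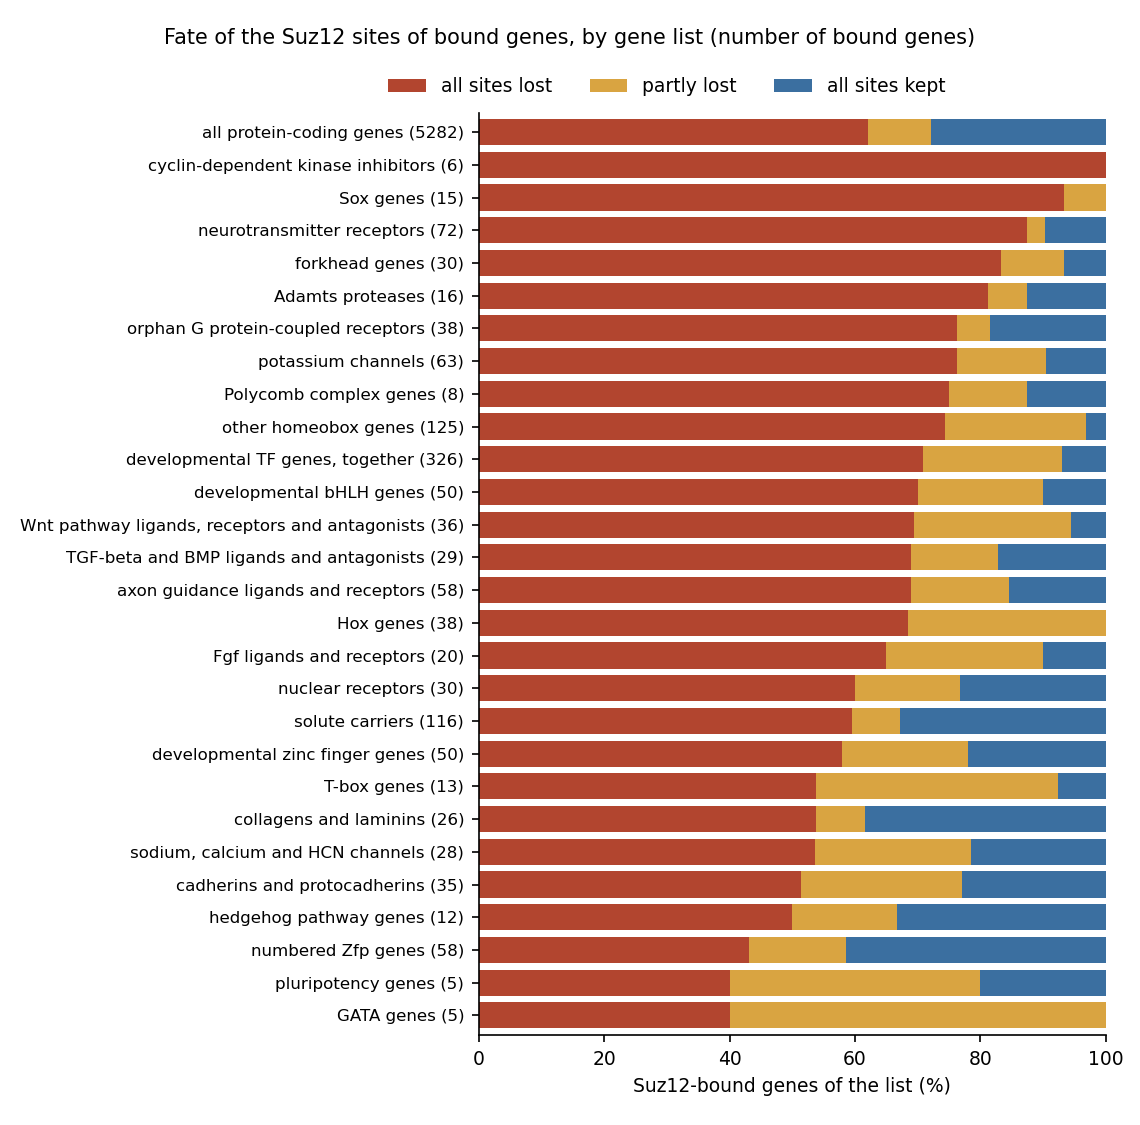
Percent of the Suz12-bound genes of each list (x axis) with all sites lost, partly lost or all kept, with the number of bound genes in brackets, for lists of at least 5 bound genes and for all bound genes (top bar). Sox genes and neurotransmitter receptors have the longest all-lost bars among lists of at least 10 genes, and Hox, Sox, GATA and cyclin-dependent kinase inhibitor genes have no all-kept part.

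Developmental transcription factor genes were bound in 326 of 377 cases. Of these, 231 lost all sites (70.9%), 72 lost some (22.1%) and 23 kept all (7.06%), and 549 of their 679 sites were lost (80.9%, 77.7% to 83.6%), beside 83.4% of all sites of the same strength. Hox genes, which set position along the body axis, were bound at 38 of 39, with 26 all lost, 12 partly lost and 0 all kept. Among 125 other bound homeobox genes 93 lost all sites and 28 lost some, including Pax7, Hmx1 and Nkx2-2 among the former, whose sites had p-values written as 0. The 4 that kept all were Pou3f4, Gbx2, Six4 and Meox1, with −log10 p of 41.9, 24.7, 15.9 and 8.17. Of 15 Sox genes 14 lost all sites, among them Sox9 of cartilage and testis, Sox14 and Sox21. Forkhead genes lost all sites in 25 of 30 cases, such as Foxf1a, Foxb2 and Foxf2, and only Foxk1 and Foxa3 kept all, each with 1 site of 450 bp. T-box genes had 7 all lost, including Tbx2, Tbx1 and Eomes, 5 partly lost and 1 kept, Tbx22. Of 5 bound GATA genes, Gata6 and Gata5 lost all sites and 3 lost some. The list of basic helix-loop-helix genes also holds relatives without the basic region, such as Ebf3, Ebf2 and Id1. It had 35 all lost, such as Ebf3 and Ebf2, 10 partly lost and 5 all kept, namely Tcf15, Id1, Scx, Ferd3l and Lyl1.

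Of 50 bound developmental zinc finger genes 11 kept all sites (22%), a higher count than in the other lists of developmental factors but a lower share than the 27.9% of all bound genes. Besides Zic5 and Sall1 they included Gli1, Gli2 and Gli3, Snai2, Prdm11, Klf1, Klf10 and Klf11, with best −log10 p between 7.29 at Klf1 and 72.1 at Zic5. Those that lost all sites included Prdm16, Prdm12 and Fezf2. The share of their sites that was lost, 70.3% (60.3% to 78.7%), held the 76.5% of sites of the same strength in its interval.

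The signaling pathways were divided in the same way. In the hedgehog list the ligand genes Ihh and Dhh and the coreceptor gene Gas1 lost all sites, with −log10 p of 307, 307 and 242. The effector genes Gli2, Gli3 and Gli1 kept theirs, with 54.5, 28.9 and 9.68. These genes are named for their rank by p-value, and the fates did not divide by role. Among other coreceptor genes, Cdon kept its site at 9.07 and Boc lost its site at 92.2. Over the list 6 of 12 bound genes lost all sites, 2 lost some and 4 kept all. For Wnt genes the counts were 25, 9 and 2, with the ligand genes Wnt7b, Wnt3 and Wnt10b all lost and the receptor gene Fzd5 and the Dkk family gene Dkk3 kept. Other receptor genes lost all sites, among them Fzd1, Fzd2 and Fzd8. Among Fgf genes 13 lost all sites, including the ligand genes Fgf9, Fgf8 and Fgf3, while the receptor gene Fgfr4 and the ligand gene Fgf4 kept theirs at 31.6 and 28.2. TGF-beta and BMP genes had 20 all lost, such as Gdf6, Gdf7 and Bmp2, 4 partly lost and 5 all kept, such as Fstl1 and the inhibin gene Inha. Nuclear receptor genes had 18, 5 and 7, with Nr2e1 and Nr2f2 lost and the retinoic acid receptor genes Rarb and Rara and the vitamin D receptor gene Vdr kept. Axon guidance genes had 40, 9 and 9, with Efna5, Ntng2 and Ephb1 lost and Efna2, Epha4 and Efna1 kept.

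By the share of all-lost genes, which depends on sites per gene, neurotransmitter receptors stood near the top of the lists. Of 72 bound neurotransmitter receptor genes 63 lost all sites, among them the glutamate receptor genes Grin2a, Grid1 and Grm4, 2 lost some and 7 kept all, including Grin3b, Gria3 and Chrnb1. They lost 74 of 83 sites (89.2%, 80.7% to 94.2%), beside 81.7% of sites of the same strength. Potassium channel genes had 48 all lost, such as Kcnk9, Kcna1 and Kcnk13, 9 partly lost and 6 all kept, such as Kcnj11. Sodium, calcium and HCN channel genes had 15, 7 and 6, with Hcn4 lost and Hcn3 kept. Orphan G protein-coupled receptor genes had 29, 2 and 7, with Gpr124 and Gpr27 among those lost.

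Among the remaining lists, solute carrier genes, with a median best −log10 p of 33.0, had 69 all lost, 9 partly lost and 38 all kept, and the vesicular GABA transporter gene Slc32a1 was lost while the glycine transporter gene Slc6a9 was kept. The numbered Zfp genes, with a median of 16.7, had 25, 9 and 24. Collagen and laminin genes had 14, 2 and 10, with Col4a1, Col27a1 and Col13a1 lost and Col9a2, Col4a3 and Col16a1 kept. Their 60.0% of 30 sites lost (42.3% to 75.4%) stood 15.2 percentage points from the 75.2% of sites of the same strength, the widest gap among lists of at least 20 sites, with an interval that still held it. Cadherin and protocadherin genes had 18, 9 and 8, with Pcdh7, Pcdh10 and Pcdh17 lost, and Adamts protease genes 13, 1 and 2. All 6 bound genes of cyclin-dependent kinase inhibitors lost all 11 sites (74.1% to 100%), including Cdkn1c, Cdkn2a and Cdkn2c, beside 90.9% at the same strength. Of 8 bound Polycomb genes 6 lost all sites, among them Cbx8 and Bmi1, and Pcgf2 kept its 1 site. Of 17 pluripotency genes 5 were bound, with Esrrb and Klf4 all lost, 2 partly lost and Utf1 kept. Only 2 of 1087 olfactory receptor genes were bound, Olfr94 and Olfr95, and both lost their site. RNA was not measured in these libraries, so the ESC label could not be checked against expressed markers.

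Several of these genes had been examined by ChIP-qRT-PCR in the study, which examined Tmem151a, Tns1 and Tle3 as a group apart from the others. The fates given here are those of the site lists, not outcomes of ChIP-qRT-PCR. The position of its primers was not compared with the sites. Hoxb7, Hoxb13, Hand1, Dusp4, a phosphatase gene that restrains MAP kinases, Acta1, skeletal actin, and Pmp22, a myelin protein gene, lost every site within 5 kb, with best −log10 p of 45.4, 307, 307, 271, 44.0 and 149. Hoxa3 lost 2 sites, at 233 and 307, and kept 1 of 450 bp at 7.37. At Tmem151a, a membrane protein gene, the start-covering site (51.7) was lost, and 2 others, at 44.1 and 7.40, were kept. The focal adhesion gene Tns1 lost its only site within 5 kb (68.5), while a kept site of 47.8 lay 55071 bp from its start. Tle3 kept its 1 site, at chr9:61220151-61222550.

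Pcl3 binding and decreased H3K27me3 were measured apart from the Suz12 lists, and both were more frequent at all-lost and partly lost genes than at all-kept genes. A gene counted if any of its sites did, and every partly lost gene had 2 or more sites. A Pcl3 site lay within 2 kb of a Suz12 site (centers) at 60.8% of all-lost genes (59.1% to 62.5%), 68.4% of partly lost genes (64.4% to 72.2%) and 11.1% of all-kept genes (9.63% to 12.8%). Over all bound genes the share was 47.7%, and counted over sites it was 44.9% of all Suz12 sites. An H3K27me3-depleted site was near at 9.85% (8.87% to 10.9%), 17.4% (14.4% to 20.8%) and 1.09% (0.670% to 1.76%) of the 3 groups, at 8.16% of all bound genes, and near 7.37% of all Suz12 sites. Among the 1761 genes in the middle of the strength range, with a best −log10 p from 20.3 to 68.8, Pcl3 was near 43.8% of 1423 all-lost genes (41.2% to 46.4%) and 24.4% of 164 all-kept genes (18.5% to 31.5%). Strength still differed inside this range, with medians of 38.6 and 24.8. Of 174 partly lost genes in this range 42.5% had Pcl3 near (35.4% to 50.0%), close to the all-lost genes. Among the 1760 strongest genes the shares were 90.3% of all-lost and 90.5% of partly lost genes. Among the 1761 weakest genes they were 14.4% of all-lost (11.3% to 18.2%), 25.5% of 51 partly lost (15.6% to 38.9%) and 9.41% of all-kept genes (7.94% to 11.1%). H3K27me3 depletion in these weakest genes was near 3.47% of 403 all-lost (2.08% to 5.75%) and 1.07% of 1307 all-kept genes (0.639% to 1.79%). Strength differed here too, with medians of 15.2 and 10.5. In the middle range H3K27me3 depletion was near 4.85% of all-lost (3.85% to 6.09%) and 1.22% of all-kept genes (0.335% to 4.34%), with overlapping intervals.

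At Hox genes the distance between centers and shared bases gave different counts of genes with Pcl3. By distance 23 of 38 bound Hox genes had Pcl3, while all 38 had a Suz12 site that shared at least 1 bp with a Pcl3 site. Pcl3 sites were up to 81300 bp wide and Suz12 sites up to 16950 bp, so 1 Pcl3 site can overlap the Suz12 sites of several genes. Whether this accounts for the different counts at Hox genes was not tested. Hoxb3, Hoxb4, Hoxb5, Hoxb7 and Hoxb8 were among the genes gained. Over all genes both measures gave like shares, with 61.3% of all-lost and 9.99% of all-kept genes by shared bases. Kept sites of partly lost genes shared bases with a Pcl3 site in 24.7% of cases, lost sites of the same genes in 64.9% and kept sites of all-kept genes in 9.64%.

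By list, decreased H3K27me3 was near a Suz12 site of 73 of the 326 bound developmental transcription factor genes (22.4%), beside 8.16% of all bound genes. The counts were 11 of 38 Hox genes, 6 of 13 T-box genes, 28 of 125 other homeobox genes and 11 of 36 Wnt genes. Potassium channel genes had it at 12 of 63 and sodium, calcium and HCN channel genes at 0 of 28, with medians of their best −log10 p of 80.4 and 75.7. These lists hold the strongest Suz12 sites of the genome to different degrees, and their H3K27me3 counts were not set beside genes of equal strength.

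When starts of every gene type were used, loss was also found at non-coding genes. Sites nearest to a lincRNA start were lost in 197 of 287 cases (68.6%, 63.1% to 73.7%), beside 67.7% at the same strength. Sites nearest to a miRNA start were lost in 51 of 84 cases (60.7%, 50.0% to 70.5%), beside 69.4%. Protein-coding starts gave 66.5% (65.4% to 67.6%) under this assignment.

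Chromosome 11 was the 1 chromosome whose share lay furthest above that of sites of its strength, at 65.5% of 921 sites (62.3% to 68.5%) beside 59.0%. Furthest below were chromosome 14, at 59.1% of 269 sites (53.1% to 64.8%) beside 65.9%, and chromosome X, at 55.1% of 167 (47.5% to 62.4%) beside 61.7%. Of the 22 lost sites in the weakest decile, 8 were on chromosome 11, including those at the starts of Hdac5, a histone deacetylase gene, C1qbp and Wipi1. Chromosome 11 held 921 of the 8876 Suz12 sites of all strengths. How many of the 888 sites of the weakest decile it held was not counted.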

How the data were processed

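ChIP-seq of Suz12-TAP, H3K27me3 and Pcl3-TAP was analysed through the authors' site lists. Per the study's methods, uniquely aligned reads (bowtie, mm9) were used by the authors, each pair of libraries was scaled to a common background, and windows past a Skellam p-value cutoff of 1e-07 were merged into sites. The deposited unit is 1 p-value per site, which for depleted Suz12 sites is again that of binding, so losses could not be ranked. Reads per site and library depth were not analysed here. The 435 Suz12 p-values written as 0 were set to the largest −log10 value (307). Sites were given to the nearest protein-coding transcript start of GENCODE vM1 (0 bp where covered) within 5 kb. Centers within 2 kb counted as near for Pcl3 and H3K27me3. Bases were read from the NCBI m37 (mm9) reference, and coordinates are 1-based. Same-strength shares weight the share lost in each of 10 strata of strength by the strata of the set. The share lost in a stratum was taken over all its Suz12 sites, those of the set included. No test over sites or genes was run. Genes were named by rank: most sites for all-lost and partly lost genes, smallest p-value for all-kept genes, up to 3 of each fate per list by p-value, and the genes examined by ChIP-qRT-PCR. The all-kept developmental transcription factors outside this rule, and Cdon, Boc, Fzd2 and Fzd8, were named after their values were seen. A few genes that the rule names are not reported here. Members, lists and alternatives were chosen with earlier results of these data known. The assignment of sites to starts, the nearness and overlap of sites and the same-strength share were checked on simulated sites with known answers. The other steps were not checked in this way. The software was matplotlib 3.10.9, scipy 1.17.1, pandas 2.3.3 and numpy 2.4.6 under Python 3.11.15.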

Additional observations from a re-analysis of the deposited data

How the results depend on the processing

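The 11 main shares were recomputed under 9 other settings. Of 84 values, 65 stayed inside the 95% interval of the main value and 19 did not. The cause was not tested unless the setting itself changes the sites or genes counted. With sites within 1 kb of a start, all-lost genes made up 67.2% and partly lost genes 4.96% of bound genes, and 87.5% of bound developmental transcription factor genes were all lost. With 20 kb these became 58.5%, 13.3% and 58.5%. With binding p-values of at most 1e-10, which removes weak sites, 82.1% of start-covering sites and 75.3% of sites over 50 kb away were lost, the 3 groups of genes became 74.2% all lost, 6.74% partly lost and 19.1% all kept, all-lost developmental transcription factor genes 81.6%, and all-kept genes with Pcl3 14.2%. When a depleted center within 2 kb also counted as a loss, 66.0% of genes were all lost, 6.34% partly lost, and 77.3% of the developmental transcription factor genes were all lost. With each site given to every gene that starts within 5 kb, 59.9% were all lost and 11.7% partly lost. Without chromosome 11, the all-lost genes with an H3K27me3-depleted site fell to 7.96%. Starts of every gene type, the lists without chromosomes X and Y, and shared bases with Pcl3 sites moved none of the shares recomputed under them out of its interval. The same-strength shares of the lists moved by at most 4.03 percentage points with 50 strata, an alternative chosen after seeing the data, as was the one by shared bases. No paired analysis was possible because each condition has 1 library. Depth was not analysed here, which limits what can be said of weak sites, where a loss may not be detectable.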
